A study of Mus musculus with 4 samples.

Results

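The 9 secreted or secretion-linked genes of muscle followed here in cultured myotubes were Il15, Il7, Bdnf, Fndc5, Metrnl, Ostn, Sparc, Dcn and Spp1. They were chosen by gene symbol, as a set of exercise myokines meant to lie outside the cytokine and TGF families, although Il15 and Il7 do encode cytokines. All 9 symbols were found once each among the 45777 genes of the deposited joint table, and 8 of them had reads. The cells were C2C12 myotubes, which form when myoblasts of this mouse line fuse, here in DMEM with 2% horse serum. A single library was made for each of 4 groups, which the titles name as EPS, its control, clenbuterol and its control. EPS is taken here to mean electrical pulse stimulation, a way to drive contraction in culture, although the labels leave the abbreviation unexplained. Clenbuterol is a β2-adrenergic agonist that raises cyclic AMP, and the treatment field of all 4 libraries, controls included, names it at 30 ng/ml, so groups were taken from the titles. C2C12 is a single established line, and pulse settings and times were not stated. The series set out to compare both treatments as models of exercise in a dish, but its title speaks of adrenaline where sample titles and the treatment field have clenbuterol, so the agent used follows the latter here.

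Titles and data names disagree for the EPS libraries. The record titled EPS holds data named for the EPS control, and the record titled as the control holds data named EPS. The pair is therefore named by its titles throughout, and should the data names be the correct ones, each EPS direction below is the opposite. Since no group has a second library, conditions were not tested against each other and no value has a replicate. In bulk RNA, fewer cells of a type and less RNA per cell cannot be told apart.

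Myokines are proteins or peptides that muscle fibres release and that act on the fibre itself, on neighbouring cells or on other organs. Il15 and Il7 encode cytokines that signal through the shared γ chain, and IL-15 is usually presented by its own α receptor. Bdnf encodes a neurotrophin that acts through the receptor TrkB. Fndc5 encodes a membrane protein whose shed outer part is called irisin, Metrnl encodes the hormone meteorin-like, and Ostn encodes osteocrin, also called musclin, which binds the clearance receptor of natriuretic peptides. Sparc, Dcn and Spp1 encode matrix proteins: SPARC binds collagen, decorin is a small proteoglycan that binds collagen fibrils and growth factors, and osteopontin binds integrins and CD44.

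Promoter sequence was read for the members that RefSeq covers in the table used (build GRCm38.p6, the mm10 assembly). The table had 12 windows for 5 members, 7 of them for Bdnf, whose transcripts start at several first exons. The 250 bases before each start were searched on both strands for 6 motifs. These were the full cyclic AMP response element (TGACGTCA), its core (TGACG, which lies within the full element), the AP-1 site (TGANTCA), the core of the antioxidant response element (TGACNNNGC, which can overlap the cyclic AMP core), the E-box of the myogenic factors (CAGCTG) and a TATA box (TATAAA). A match describes the letters and does not by itself show binding. The sequences below are shown because clenbuterol acts through cyclic AMP and because MyoD-family factors, which bind the E-box, drive the formation of myotubes. Capitals mark the match. The first 3 are on the plus strand at chr2:109692186-109692435, chr2:109676782-109677031 and chr5:104434861-104435110. The other 2 are stretches of 30 bases, at chr11:121702377-121702406 on the plus strand and chr11:55420123-55420152 on the minus strand.
Bdnf, cyclic AMP core: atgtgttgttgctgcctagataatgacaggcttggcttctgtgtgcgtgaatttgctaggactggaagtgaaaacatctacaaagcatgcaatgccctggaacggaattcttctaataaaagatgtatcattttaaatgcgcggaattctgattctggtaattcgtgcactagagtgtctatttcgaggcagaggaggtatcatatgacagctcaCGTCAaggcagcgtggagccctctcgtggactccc
Bdnf, AP-1: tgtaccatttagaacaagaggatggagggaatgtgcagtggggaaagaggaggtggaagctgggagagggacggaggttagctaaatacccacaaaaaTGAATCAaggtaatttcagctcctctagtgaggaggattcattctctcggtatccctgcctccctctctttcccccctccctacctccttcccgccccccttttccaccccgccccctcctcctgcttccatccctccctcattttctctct
Spp1, TATA: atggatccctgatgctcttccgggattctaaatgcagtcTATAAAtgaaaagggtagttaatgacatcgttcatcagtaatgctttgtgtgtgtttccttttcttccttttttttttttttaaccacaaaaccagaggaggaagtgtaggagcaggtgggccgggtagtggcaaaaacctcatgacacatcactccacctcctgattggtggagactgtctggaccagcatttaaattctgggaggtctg
Metrnl, E-box: ggttccgcccccCAGCTGagccagaccacg
Sparc, E-box: aggtgattccagCAGCTGttccagccctga

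The cyclic AMP core of Bdnf begins 35 bases before the third of its 7 starts and reads as CGTCA, the reverse complement of TGACG. Of all 32851 RefSeq windows of this length, 17.8% held the core and 1.55% the full element, which none of the 12 windows held. The AP-1 match of Bdnf begins 152 bases before its second start, and 6.75% of all windows held such a match. The TATA match of Spp1 begins 211 bases before its first start, and 12.4% of all windows held one. Metrnl and Sparc carry an E-box 38 and 60 bases before their starts, Bdnf carries one 171 bases before the start at 109694409, and 13.001% of all windows held one. The single window of Fndc5 and the second of Spp1 matched none of the 6 motifs, and the antioxidant core (10.2% of all windows) was in none of the 12. The windows of Fndc5, Sparc and Metrnl and the second of Spp1 overlap exons of the GENCODE annotation, so they are not wholly sequence outside transcripts. That of Fndc5 ends at 129136998, while the gene begins at 129136870.

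The libraries held 32640884 to 35597074 estimated counts, and 13412 to 13489 genes reached 1 TPM, the deposited measure of transcript level that allows for gene length. The myotube label held in all 4: the 8 myotube markers fixed for this check were all expressed, Acta1 at 5723 to 9090.2 TPM. Of the markers of other cells, the leukocyte genes Ptprc and Adgre1, the fibroblast gene Thy1, the adipocyte genes Adipoq, Plin1 and Lep and the neural genes Snap25 and Rbfox3 were listed at 0 in every library. Other genes of those lists were expressed in all 4: neural Tubb3 at 86.5 to 127 TPM, osteoblast Bglap at 7.52 to 12.8, fibroblast Pdgfra at 3.46 to 4.33 and Dpt at 0.675 to 1.36, and leukocyte Cd68 at 2.79 to 4.88. The 4 endothelial genes stayed under 1 TPM.

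The members spanned the whole range of expression, and their order by median TPM was Sparc, Spp1, Dcn, Metrnl, Bdnf, Il15, Fndc5, Il7 and Ostn. Together they made up 0.49997% to 0.667% of all TPM, and Sparc, Spp1 and Dcn gave 98.3% to 99.03% of that. The ranges of neighbours in the order did not overlap from Sparc down to Bdnf, nor between Bdnf and Il15. Il15 overlapped both Fndc5 and Il7, so the order of those 3 rests on the medians only. Fndc5 lay above Il7 in every library.

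**Figure D1:**
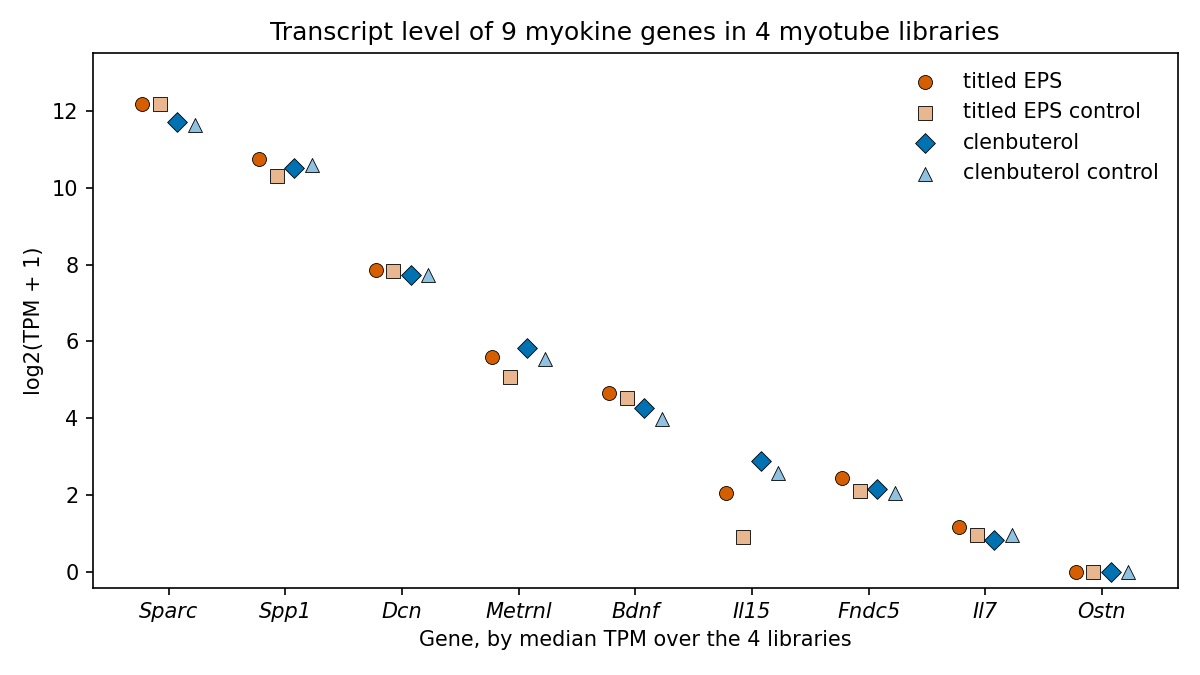
Transcript level of each member on the log2(TPM + 1) scale (y axis) for genes ordered by median TPM (x axis), 1 point per library and 1 library per group. Sparc lies near 12, Ostn at 0 in all 4 libraries, and Il15 has the widest spread, with the titled EPS control lowest at 0.884 TPM.

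Among the matrix proteins, Sparc had 4649 TPM in the titled EPS library, 4631 in the titled EPS control, 3354 with clenbuterol and 3189 in the clenbuterol control. It ranked between 14 and 25 among all genes, and both libraries of the EPS pair lay above both of the clenbuterol pair. Spp1 had 1709.7, 1257, 1470.1 and 1529 TPM in the same order of libraries, so the highest and the lowest value both belonged to the EPS pair. Dcn varied least of the members with reads, with 231, 225, 209.9 and 212 TPM, a highest value 1.10 times the lowest.

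The hormone and neurotrophin genes were expressed at a middle level or lower. Metrnl had 47.1 TPM in the titled EPS library, 32.6 in the titled EPS control, 55.9 with clenbuterol and 45.6 in its control, so that the titled EPS control was the lowest of the 4. Bdnf had 24.3, 22.03, 18.4 and 14.9 TPM in that order, with the EPS pair above the clenbuterol pair. Its value pools 12 RefSeq transcripts, and its counts, 871 to 1523, do not show which start was used. Fndc5 was weak, at 4.43, 3.28, 3.46 and 3.16 TPM from 125 to 194 counts, with the titled EPS library highest and the other 3 close together.

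The 2 cytokine genes rested on few counts, and Ostn had none. Il15 had 3.15 TPM in the titled EPS library, 0.884 in the titled EPS control, 6.43 with clenbuterol and 4.99 in its control, from 67, 20, 124 and 105 counts. The highest value was 7.27 times the lowest, the widest span of any member with reads, and both libraries of the EPS pair lay below both of the clenbuterol pair. Il7 had 1.27, 0.968, 0.801 and 0.964 TPM from 57, 38, 33 and 41 counts. Gm16685, a locus on the other strand that overlaps Il7, had 8 counts in the titled EPS control and 0 in the other libraries. Whether counting used strand was not stated, and reads of this pair might be mixed. Ostn had 0 counts in all 4 libraries, where a floor of 3 counts allows up to 0.0921 CPM (counts scaled to library size, with no allowance for length). Osteocrin transcripts were thus not detectable at this depth under either treatment.

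In mm10, Sparc lies on chromosome 11 at 55394159 to 55420080, Spp1 on chromosome 5 at 104435111 to 104441053, Dcn on chromosome 10 at 97479500 to 97518163 and Metrnl on chromosome 11 at 121702427 to 121717389. Bdnf lies on chromosome 2 at 109674700 to 109727043, Fndc5 on chromosome 4 at 129136870 to 129144593, Il15 on chromosome 8 at 82331624 to 82403252, Il7 on chromosome 3 at 7572028 to 7613760 and Ostn on chromosome 16 at 27307641 to 27351209. Spp1 and Dcn each sit in a cluster of related genes. The 4 other genes of the Spp1 cluster, which encode bone and tooth matrix proteins, lie 96.5 to 255 kb away. Ibsp, Mepe and Dspp were listed at 0 in every library and Dmp1 reached 1.10 TPM at most. The relatives of Dcn on the same chromosome, Lum, Kera and Epyc, lie 47.3 to 126 kb away, and of these Lum reached 0.320 TPM while Kera and Epyc were listed at 0. In both clusters the member was thus the one gene expressed at a high level.

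The first comparison was clenbuterol against its control. Bdnf, Metrnl and Sparc were slightly higher in the clenbuterol library, Spp1 was slightly lower, and no member differed by 2-fold. Bdnf was 1.25-fold higher in CPM (95% counting interval 1.14 to 1.37) on 1058 against 871 counts, Metrnl 1.24-fold higher (1.16 to 1.33) on 1976 against 1638, and Sparc 1.10-fold higher (1.09 to 1.11). Spp1 stood at 0.975 of its control (0.960 to 0.991). For Il15 the ratio was 1.22 (0.930 to 1.59), for Fndc5 1.09 (0.853 to 1.40), for Dcn 1.00 (0.967 to 1.04) and for Il7 0.828 (0.507 to 1.34), and these 4 intervals hold 1. The intervals come from the counts alone and do not cover differences between cultures.

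Of the 7 members with at least 1 TPM in this pair, 0 were 2-fold apart in TPM plus 1, against 1.52% of the 13788 genes measured, and 0 were 2-fold apart in CPM, against 2.68%. The counting interval lay above 1 for 3 of the 7 and below 1 for 1. Thus 4 of 7 excluded 1, against 31.6% of all genes. For all measured genes it lay above 1 in 17.7% and below 1 in 13.9%. An interval narrows with more counts, and these shares were not matched for counts. The median log2 ratio of TPM plus 1 was 0.10 over the 7 members and −0.01 over all genes. Il15 (0.31), Metrnl (0.29) and Bdnf (0.28) had higher ratios than 94.0%, 93.3% and 93.2% of genes. The 8 myotube markers had log2 ratios from −0.10 to 0.10.

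**Figure D2:**
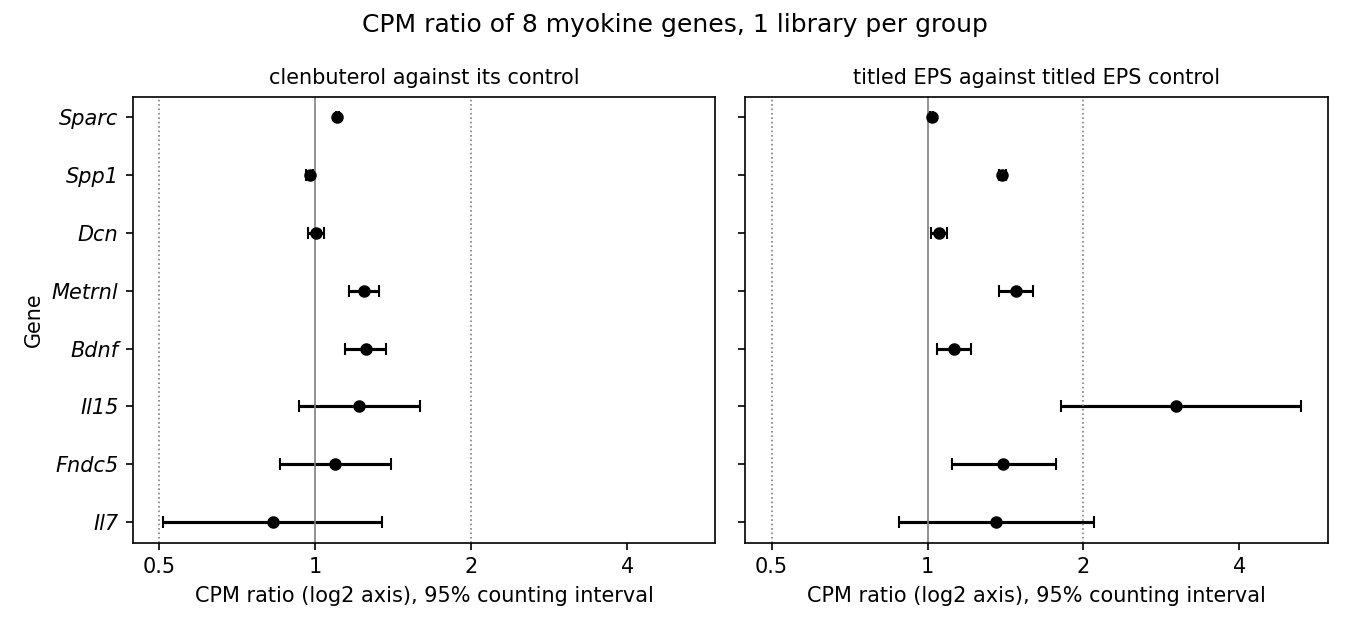
CPM ratio of the 8 members with reads on a log2 axis (x axis), first library over second, for clenbuterol (left) and titled EPS (right), each from 1 library per group. Bars are 95% counting intervals, the solid line marks equality and the dotted lines 2-fold. Il15 in the EPS pair (3.02, 1.81 to 5.26) is the one ratio past 2-fold.

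The second comparison was titled EPS against titled EPS control. All 8 members with reads had a log2 ratio above 0 by title, and all 8 lie below 0 if the data names are right. Il15 was set apart from the rest at 3.02-fold higher in CPM (1.81 to 5.26), on 67 against 20 counts. Metrnl followed at 1.48-fold (1.37 to 1.60) on 1814 against 1106 counts, then Fndc5 at 1.40-fold (1.11 to 1.77) on 194 against 125 and Spp1 at 1.39-fold (1.37 to 1.42) on 38131 against 24669. Bdnf was 1.13-fold higher (1.04 to 1.21), Dcn 1.05-fold (1.02 to 1.09) and Sparc 1.02-fold (1.01 to 1.03). Il7 had a ratio of 1.35 whose interval holds 1 (0.882 to 2.10).

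Il15 was the 1 of 8 members at least 2-fold apart in TPM plus 1, with a log2 ratio of 1.14, against 2.01% of the 13828 genes measured. It was also the 1 member 2-fold apart in CPM, against 3.54%. Il15 and Il7 reached 1 TPM in this pair only in the titled EPS library. They thus enter these counts and the median only through the library where they were higher. The call depended on the scale: the log2 ratio was 0.76 in FPKM plus 1 and 0.47 at a pseudocount of 5, below 2-fold in both. The counting interval lay above 1 for 7 of the 8 members, against 50.3% of all genes with an interval that excludes 1. Over all genes it lay above 1 in 25% and below 1 in 25.3%. Here too the shares were not matched for counts. Sparc is among the 7 at a ratio of 1.02, on 180101 against 159391 counts. The median log2 ratio was 0.27 over the members and −0.02 over all genes, of which 45.4% had a ratio above 0. Metrnl (0.51), Spp1 (0.44) and Fndc5 (0.34) had higher ratios than 96.9%, 95.8% and 93.3% of genes, and Sparc (0.01) than 55.6%.

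Markers of the myotube itself differed in the opposite direction. All 8 myotube markers were lower in the titled EPS library, with log2 ratios from −0.74 (Myh8) to −0.11 (Tnnt3) and a summed level of 10211 against 14445 TPM. Of the pair of myoblast markers, Myf5 had a log2 ratio of 0.39 and Pax7 of −0.41. Leukocytes are a known source of osteopontin. Their list had a summed level of 5.03 TPM in the titled EPS library and 4.05 in the titled EPS control. Of this Cd68 gave 4.70 and 3.29, with Ptprc and Adgre1 at 0. The remaining genes of the list were lower in the titled EPS library. Csf1r had 0.090 against 0.411 TPM (6 against 22 counts) and Lyz2 had 0.242 against 0.353. The osteoblast list, another such source, stood at 9.64 and 7.57 TPM, with Ibsp at 0. Of this Bglap gave 9.43 and 7.52, on 71 against 50 counts, with a CPM ratio of 1.28 whose interval holds 1 (0.880 to 1.88). Sp7 had 0.209 and 0 TPM, and Alpl had 0 and 0.048. The part of the myotube markers in the differences of the members was not tested.

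**Figure D3:**
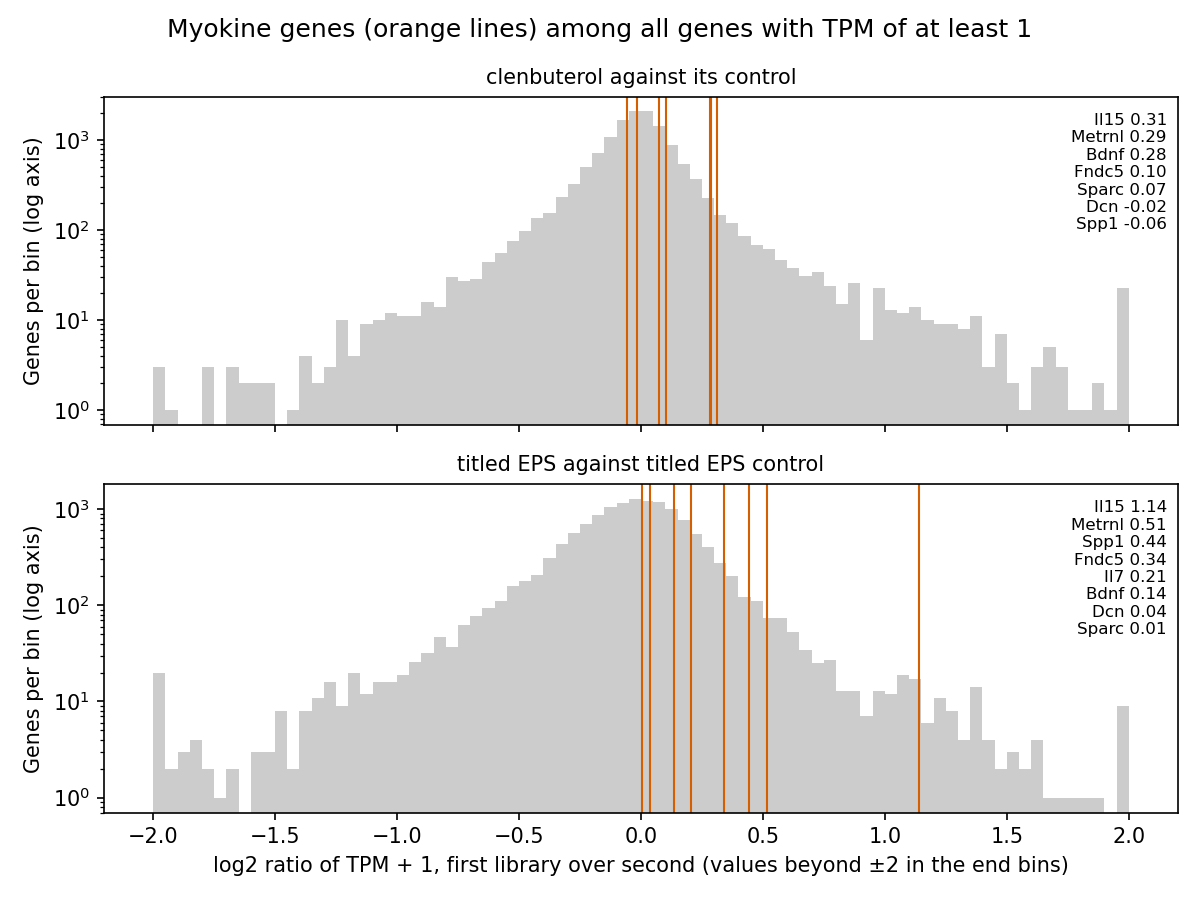
Number of genes (y axis, log scale) by log2 ratio of TPM + 1 (x axis) among genes with at least 1 TPM in the pair, for clenbuterol (top) and titled EPS (bottom), 1 library per group. Orange lines mark the members, which lie between −0.06 and 0.31 in the clenbuterol pair and between 0.01 and 1.14 in the EPS pair.

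Set side by side, the comparisons gave different ratios for the same members. Spp1 had a CPM ratio of 0.975 with clenbuterol and 1.39 in the EPS pair by title, and Il15 had 1.22 and 3.02. Bdnf stood the other way, at 1.25 with clenbuterol (1.14 to 1.37) and 1.13 in the EPS pair (1.04 to 1.21), but these counting intervals overlap. The comparisons share no library, and with 1 library per group these differences were not tested. Sparc, Dcn, Bdnf and Il7 were higher in both libraries of the EPS pair than in both of the clenbuterol pair. Il15 was lower in both, so that 5 of the 8 members with reads did not overlap. Over all genes 59.8% did not overlap, so this share is near the background. The gap was widest for Il15, whose lower clenbuterol-pair value was 1.59 times its higher EPS-pair value, and for Sparc, at 1.38 times in the other direction. For Il7 it was 1.00, at the 3 digits given. Of the 8 myotube markers, 7 were lower in both libraries of the EPS pair, as were 25.1% of all genes, and their part in these values was not tested.

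Genes that receive or resemble each member were taken from 9 lists of 76 genes in all, grouped by role. In the clenbuterol pair 49 of these reached 1 TPM, and 1 was at least 2-fold higher and 0 lower, beside backgrounds of 1% and 0.515% of all genes. In the EPS pair 50 reached 1 TPM, and 1 was higher by title and 0 lower, beside 0.868% and 1.14%. The 2 genes were Vegfa with clenbuterol and Ccn2 in the EPS pair, both in the list of other secreted factors.

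For the cytokines, the receptor side was uneven. The receptor of IL-7 was listed at 0 (Il7r, all 4 libraries) and the α receptor of IL-15 was near the floor, with Il15ra at 8 to 19 counts and at most 0.319 TPM. The β chain Il2rb had 5.46 to 8.63 TPM and the γ chain Il2rg 2.00 to 2.57. Of the downstream kinases and factors, Jak1 was the most abundant, at 68.2 to 88.0 TPM. Tslp, which encodes an IL-7-like cytokine, had 2.78 TPM with clenbuterol and 5.53 in its control, a CPM ratio of 0.526 (0.362 to 0.755) on 47 against 92 counts, and 2.67 and 2.31 TPM in the EPS pair. The median log2 ratio of the list was −0.09 with clenbuterol and −0.06 in the EPS pair by title, over 8 of 10 genes.

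For Bdnf, the receptor genes described were at or near 0 and the sorting and processing genes were present. The neurotrophin gene Ntf3 had no reads, Ntrk2, which encodes TrkB, had 4 counts in the clenbuterol library and 0 elsewhere, and Ngfr had 5 counts there and 0 elsewhere. Sorcs2 and Sort1, sorting receptors that bind the precursor, had 71.3 to 87.5 and 7.67 to 13.8 TPM, and the protease gene Furin had 68.8 to 75.6. Ntf5, a neurotrophin gene that shares TrkB, had a CPM ratio of 1.94 by title (1.12 to 3.48) on 43 against 20 counts.

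For Fndc5, the integrin genes of the proposed irisin receptor were abundant: Itgav had 53.2 to 68.4 TPM and Itgb5 had 202 to 248. Fndc4, its closest relative, was expressed at 5.77 to 7.74 TPM, above Fndc5 in every library. Ppargc1a, which encodes the coactivator described as acting upstream of Fndc5, was weak and reached 1 TPM only in the clenbuterol library. It had 1.69 TPM there and 0.633 in the clenbuterol control. Its CPM ratio with clenbuterol was 1.89 (1.44 to 2.49) on 156 against 85 counts, where Fndc5 had 1.09. In the EPS pair by title the ratio of Ppargc1a was 0.953 (0.588 to 1.55) on 38 against 36 counts. For Metrnl, its relative Metrn had 21.6 to 25.6 TPM, below Metrnl in each library. Kit, which encodes a receptor reported for meteorin-like, had no reads.

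Ostn was not detected, but Npr3 and Npr2, receptors that osteocrin bears on, were. Npr3, the clearance receptor that osteocrin binds, had 6.15 TPM in the titled EPS library, 2.74 in the titled EPS control, 1.73 with clenbuterol and 1.69 in its control. Its CPM ratio in the EPS pair was 2.38 (2.05 to 2.76) on 645 against 245 counts, while its log2 ratio of TPM plus 1 was 0.93, just under 2-fold. Npr2, a signalling receptor, varied little at 14.4 to 15.5 TPM. Npr1, the remaining receptor gene of the list, stayed under 1 TPM in every library, at 0.099 to 0.372. Nppb, which encodes a peptide cleared by Npr3, had 1.75 TPM in the titled EPS library, 3.62 in its control, 4.94 with clenbuterol and 7.60 in the clenbuterol control. Both treated libraries by title were thus below their controls, on few counts. The CPM ratio was 0.537 in the EPS pair (0.314 to 0.902) on 25 against 42 counts. With clenbuterol it was 0.671 (0.473 to 0.944) on 58 against 89. If the data names of the EPS pair are right, the directions differ between the pairs.

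**Figure D4:**
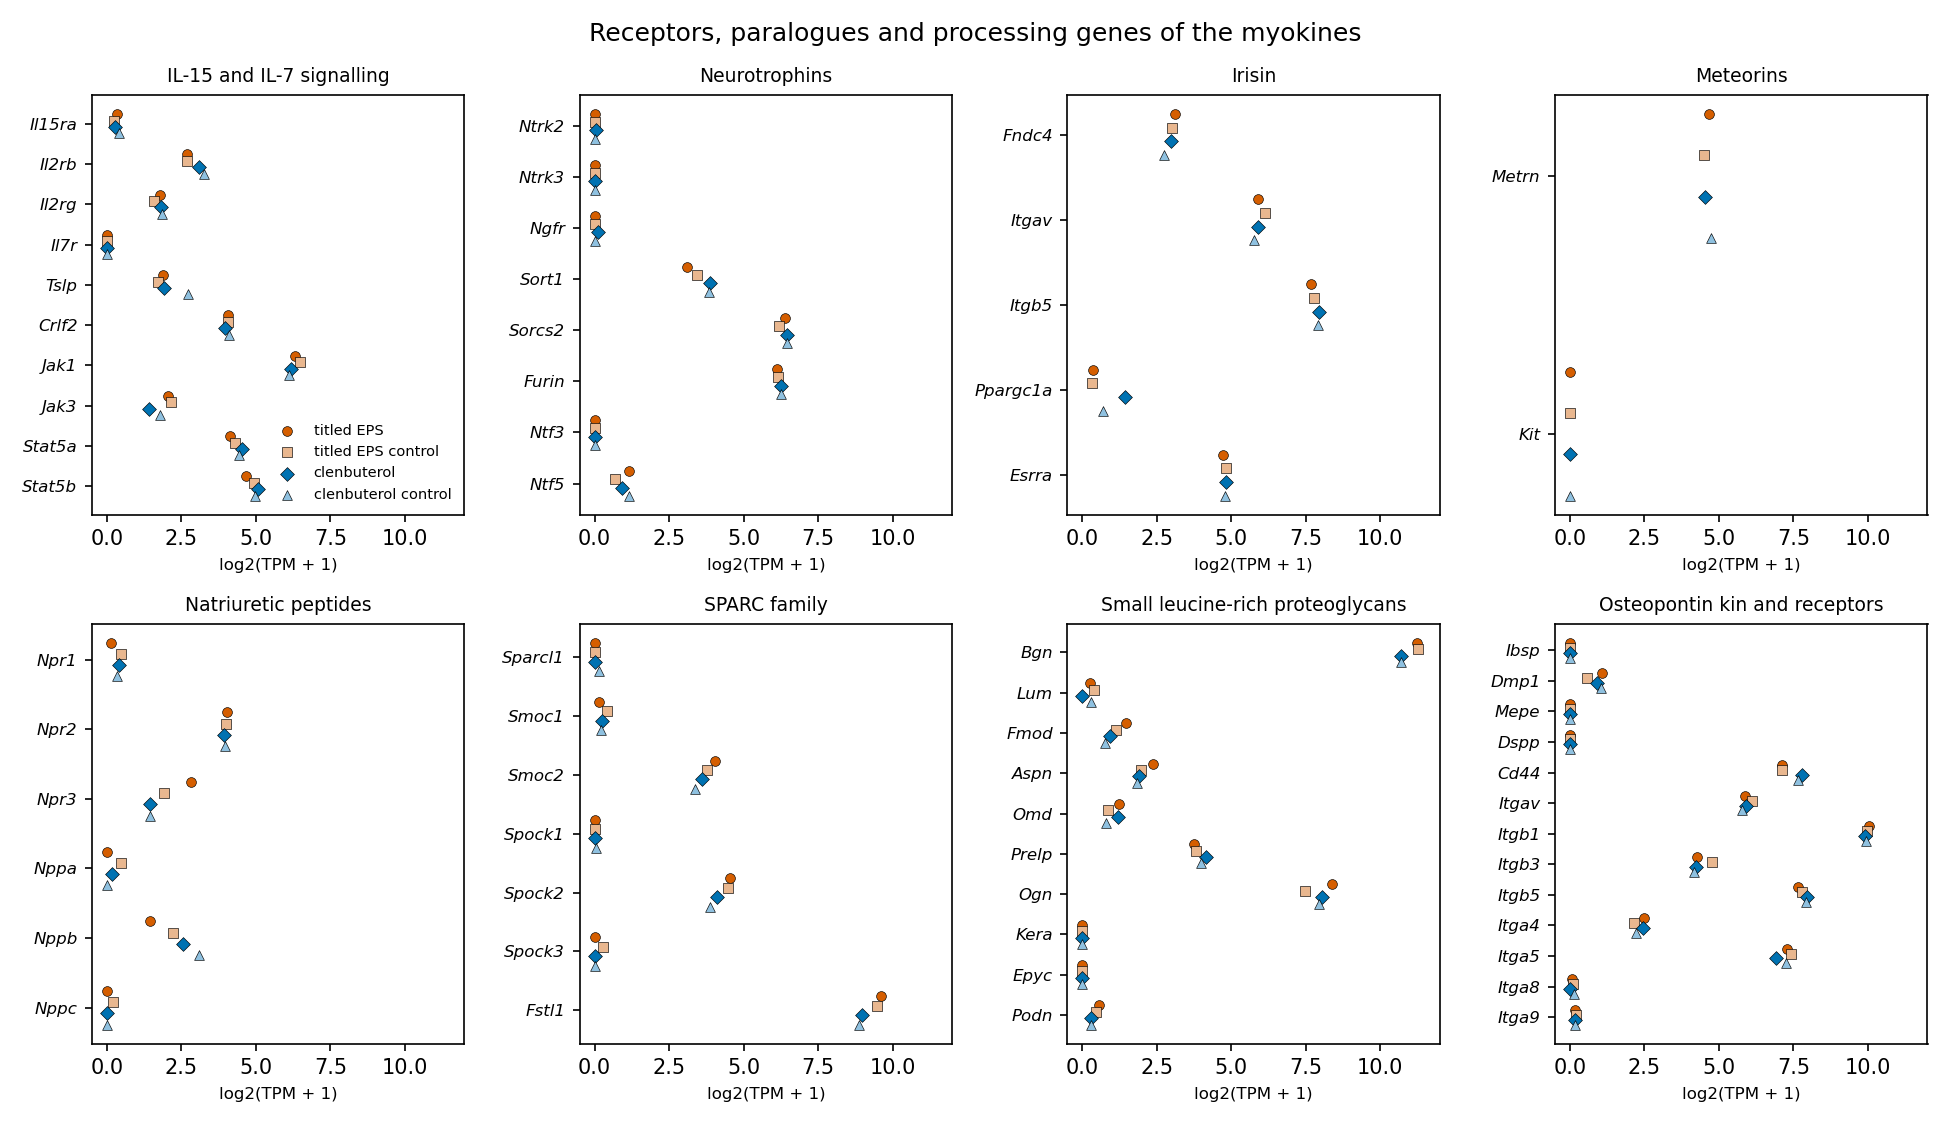
Level on the log2(TPM + 1) scale (x axis) of receptors, relatives and processing genes of the members (y axis), in 8 of the 9 lists, 1 point per library and 1 library per group. Il7r, Ntf3, Kit, Kera, Epyc, Ibsp, Mepe and Dspp lie at 0 in all 4 libraries, and Npr3 and Ogn are highest in the titled EPS library.

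In the SPARC family 3 of 7 genes reached 1 TPM, and Fstl1, which encodes the secreted glycoprotein follistatin-like 1, led at 470 to 774 TPM. All 3 had log2 ratios above 0 in both comparisons, from 0.08 to 0.24 with clenbuterol and from 0.07 to 0.24 by title in the EPS pair. Like Sparc, all 3 were higher in both libraries of the EPS pair than in both of the clenbuterol pair, as were 34.7% of all genes. Among the relatives of decorin, Bgn (biglycan) was the most abundant, at 1656 to 2444 TPM, and exceeded Dcn in every library. Ogn (osteoglycin) had 329 TPM in the titled EPS library, 176 in the titled EPS control, 261 with clenbuterol and 243 in its control, with a CPM ratio of 1.92 (1.86 to 1.98) in the EPS pair. Aspn (asporin) had a ratio of 1.47 there (1.13 to 1.92). Bgn and Prelp were the 2 genes of the list with log2 ratios of TPM plus 1 below 0 in the EPS pair by title. Their CPM ratios were 1.01 (0.997 to 1.02) and 0.970 (0.871 to 1.08), and both intervals hold 1. The median log2 ratio of the list was 0.36 by title over 6 genes and 0.10 with clenbuterol over 5.

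Receptors of osteopontin were expressed broadly. Itgb1 had 963 to 1041 TPM, Cd44 had 137 to 218 and Itga5 had 120 to 171, while Itga8 and Itga9 stayed under 1 TPM. Itgb3 was lower in the titled EPS library, at 18.0 against 26.4 TPM and a CPM ratio of 0.701 (0.657 to 0.748), the opposite direction to Spp1. Itga5 was lower with clenbuterol, at 0.804 of its control (0.780 to 0.828). Itga4 was higher in both comparisons, with CPM ratios of 1.25 with clenbuterol (1.11 to 1.41) and 1.36 by title in the EPS pair (1.21 to 1.53). In the EPS pair 4 of the 8 measured genes had log2 ratios above 0 by title and 4 below. The list's median log2 ratio was 0.06 with clenbuterol and −0.06 in the EPS pair, over 8 of 13 genes.

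Other secreted factors described as myokines, 15 genes, had median log2 ratios of 0.03 with clenbuterol over 13 measured and −0.07 by title over 14. Fgf21 had 37.6 TPM in the titled EPS library and 70.0 in the titled EPS control, a CPM ratio of 0.551 (0.495 to 0.613), and was the lowest of the list there. Angptl4 was the lowest with clenbuterol, with a log2 ratio of −0.46. Apln, which encodes the peptide apelin, separated the pairs, with 13.3 and 12.8 TPM in the EPS pair and 0.799 and 0.913 in the clenbuterol pair.

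Il15 and Metrnl had the widest ranges of log2 TPM plus 1 over the 4 libraries, 1.98 and 0.76. The genes with the nearest pattern to Il15 among 10457 searched were Ccn2, Heyl and Hist1h4m, at root mean square distances of 0.15, 0.15 and 0.16 log2 units. Ccn2 had 576, 267, 1085 and 1081 TPM in the titled EPS, titled EPS control, clenbuterol and clenbuterol control libraries. Those nearest to Metrnl were Plekhb1, Trappc2l and Socs1, at 0.03, 0.04 and 0.04. With 4 libraries such likeness is a description of these libraries only.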

How the data were processed

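Poly(A) RNA from 4 C2C12 myotube samples was sequenced with a stranded kit, per the labels' protocols. Reads were aligned with HISAT2 to mm10, per the submitters' processing notes. Neither the labels nor the file headers name the counting program, its annotation or its use of strand. The authors deposited estimated counts, FPKM and TPM per gene in 1 joint table, and coverage (a signal), FPKM and TPM per library. Library totals are given above.

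A pseudocount of 1 was added to TPM before log2 ratios were taken, for genes reaching 1 TPM in the pair, and ratios of CPM after TMM scaling (edgeR 4.0.16, R 4.3.3) with exact Clopper-Pearson 95% intervals that cover counting error only. A gene was called at 2-fold in TPM plus 1. The scripts were tested on simulated data. Symbols turned into dates were restored for 26 genes by RefSeq ID. DESeq2 1.42.0 gave alternative size factors. Python 3.11.15, pandas 2.3.3, numpy 2.4.6, scipy 1.17.1 and matplotlib 3.10.9 did the rest.

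The members, lists and alternatives were chosen with earlier results of these data known. Some genes of the lists are not reported here by name. The text names all members and the 3 genes nearest in pattern to the 2 widest-ranging members, among genes with at least 5 TPM. From the lists it names some, not all, of the 2 highest and 2 lowest genes, and receptors and relatives by role. Whether the libraries came from separate cultures is not stated. Promoters came from RefSeq (GRCm38.p6).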

Additional observations from a re-analysis of the deposited data

Results flagged for a closer look

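Among the members, their partners and the cell type markers, 16 genes had counting intervals that excluded 1 in opposite directions in the 2 comparisons. They were 1 of the 7 members measured in both pairs, 7 partners and 8 markers, with 6 of the 8 myotube markers among these. Of the partners, 49 reached 1 TPM in the clenbuterol pair and 50 in the EPS pair. Over all 13403 genes measured in both pairs, the share was 10.6%. The difference between the comparisons was not tested, and each value comes from 1 library per group. Log2 ratios of CPM are given, clenbuterol against its control first and titled EPS against titled EPS control second. Spp1 was the one member, at −0.036 and 0.48. Among partners, Metrn had −0.20 and 0.20 and Fgf21 had 0.28 and −0.86. The integrin genes Itgav (0.12 and −0.23) and Itgb5 (0.061 and −0.082), the signalling genes Jak1 (0.093 and −0.11) and Stat5b (0.13 and −0.16) and Timp1 (0.16 and −0.053) had signs opposite to those of Spp1. So did 6 of the 8 myotube markers, namely Acta1 (0.12 and −0.63), Myh3 (0.080 and −0.58), Myh8 (0.081 and −0.72), Myog (0.072 and −0.13), Mymk (0.11 and −0.40) and Ttn (0.12 and −0.51). The myoblast marker Pax7 had 0.96 and −0.85, and the leukocyte marker Cd68 had −0.81 and 0.62. The part of these markers in the values of Spp1 was not tested. If the data names of the EPS pair are right, the EPS signs are the opposite and each of the 16 genes has the same sign in both comparisons.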

How the results depend on the processing

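With groups from the names of the deposited data, the 1 member past 2-fold in the EPS pair, Il15, was lower in place of higher (log2 −1.14), and the members' median log2 ratio was −0.27. That median was 0.39 at a pseudocount of 0.1, 0.15 at a pseudocount of 5, 0.46 in CPM with TMM factors, 0.48 in CPM with total-count scaling and 0.45 with DESeq2 size factors. The number of members 2-fold apart in the EPS pair was 0 at a pseudocount of 5, in FPKM plus 1 and with a minimum of 5 TPM, which leaves Il15 out. With that minimum, chosen for the median after seeing the data, the median was 0.14 over 5 members in the EPS pair and 0.18 over 6 with clenbuterol, against 0.10 as reported, and with no minimum it was 0.21 and 0.07 over 9. In the clenbuterol pair the number 2-fold apart was 0 under every alternative run. With the titles kept, 94 of 96 values of single members kept their sign under the other scales, the exceptions being Dcn with clenbuterol in CPM with TMM factors and with DESeq2 size factors. Of these values 14 lay outside the counting interval around the reported one, all of Sparc, Spp1 or Dcn, whose high counts make that interval narrow. Il15 and Il7 rest on 20 to 124 counts per library, and their intervals are the widest. No paired analysis was possible because each group has 1 library.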

Other observations

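The deposited coverage of Bdnf did not stand in the same relation to its FPKM as that of the other members. Coverage divided by FPKM was 0.276 to 0.301 for Bdnf in the 4 libraries, against 1.78 to 3.88 for the other members with reads. Its counts and TPM gave like ratios between libraries, with log2 ratios of 0.32 in CPM and 0.28 in TPM plus 1 with clenbuterol, and no comparison used the coverage values.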
